A study of Mus musculus with 6 samples.

Results

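The genes described here encode the nuclear subunits of the mitochondrial respiratory chain and of the ATP synthase. They were chosen by gene name, and the list held 82 of the 19613 genes in the table. Complex I had 36 of them, complex II 4, complex III 9, complex IV 17 and complex V, the ATP synthase, 16. Uqcr11 of complex III and Ndufb2 of complex I were singled out because their measured values spread widely over these same arrays, so their spread is given as a description with no test.

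Embryoid bodies, aggregates of differentiating cells that here contained spinal motor neurons, were grown from mouse HGB3 embryonic stem cells, which carry an HB9-eGFP reporter that marks motor neurons (Hb9 is the gene Mnx1). All 6 cultures had received blood fluid from mice of the strain B6CBA-Tg(HDexon1)62Gpb/3J, which carry a piece of the human huntingtin gene and model Huntington's disease. Per the methods, the donors were male carriers taken before the onset of symptoms. The sample labels call the fluid plasma and the methods call it serum. RNA from each culture was hybridised to 1 mouse exon array, and the titles number the arrays as replicates 2, 4, 5, 6, 7 and 8. They formed a single group. Control arrays were not analysed here, so no difference between treatments could be measured, and each result below is a spread over the arrays or a relation between genes. The labels give neither a batch nor a separate origin for each culture. The p-values of the correlation below treat the 6 arrays as independent, which could not be checked. Differences between the arrays may be technical. The embryoid bodies are mixtures of cells, and the reporter marks only the motor neurons among them.

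The respiratory chain sits in the inner mitochondrial membrane. Complexes I and II pass electrons from NADH and succinate to ubiquinone, complex III passes them on to cytochrome c, and complex IV hands them to oxygen. Complexes I, III and IV pump protons as they do so, and the ATP synthase uses the returning protons to make ATP. Neurons depend heavily on this pathway. Each complex is built from many subunits in fixed proportions, a few of them catalytic and the others accessory, and all but complex II also hold subunits encoded in mitochondrial DNA. The mitochondrially encoded subunits, Cox5a and Cox7a1 were not analysed here.

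Levels are log2 intensities, and errors are the SD over the 6 arrays. Genes with a mean over 7.47 were counted as above background, a level that 95% of the 1032 olfactory receptor genes stayed under. Of the 82 genes 80 passed (97.6%), against 65.2% of all genes in the table. The only ones below background were Cox7b2, with a mean of 4.55 ± 0.17, and Cox8b, with a mean of 6.73 ± 0.12, which are tissue-restricted isoforms of complex IV subunits. The names of 78 genes were current in RefSeq and 4 were older synonyms. Among those, Cox4nb is now Emc8, a part of an endoplasmic reticulum membrane complex and no cytochrome oxidase subunit, Atp5s is Dmac2l and Atp5sl is Dmac2, while Atp5f1 (Atp5pb) is a true subunit. Leaving out Cox4nb, Atp5s and Atp5sl, the median SD of the other 77 genes above background was 0.078, as it was over all 80. Ndufa4, counted with complex I by its name, is now held to belong to complex IV.

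The arrays resembled each other closely, with a mean Pearson's r of each with the others over all genes above background between 0.992 for replicate 8 and 0.995. Replicate 8 also had the lowest median intensity of the 6, at 296 against 305 to 311 in the others. All 6 motor neuron markers (Mnx1, Isl1, Isl2, Lhx3, Chat and Slc5a7) and all 4 progenitor markers (Olig2, Nkx6-1, Sox2 and Nes) were above background. The mean of the motor neuron markers lay between 9.11 and 9.34 and that of the progenitor markers between 10.19 and 10.33. None of the 4 blood genes found in the table passed background, and 2 of 6 mesoderm and endoderm genes did. In such mixed cultures, fewer cells of a type and less RNA per cell cannot be told apart.

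Most subunit genes varied little over the arrays, and 6 varied widely. The median SD of the 80 genes above background was 0.078 (quartiles 0.051 and 0.11), beside 0.076 (quartiles 0.053 and 0.11) over all 12793 genes above background. By complex, the median SD was 0.077 in complex I, 0.091 in complex II, 0.098 in complex III, 0.085 in complex IV and 0.068 in complex V. The difference between complexes was not tested, since genes of a complex are not replicates of it. Bright genes vary less on arrays, and 48 of the 80 lay in the brightest of 4 equal classes of level. Within that class the subunit genes had a median SD of 0.061, beside 0.058 over all genes of the class. In the other classes, by falling level, it was 0.091 beside 0.069 (15 genes), 0.112 beside 0.078 (9 genes) and 0.106 beside 0.111 (8 genes). Over all classes 46 of the 80 lay above the median of their own class.

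**Figure D1:**
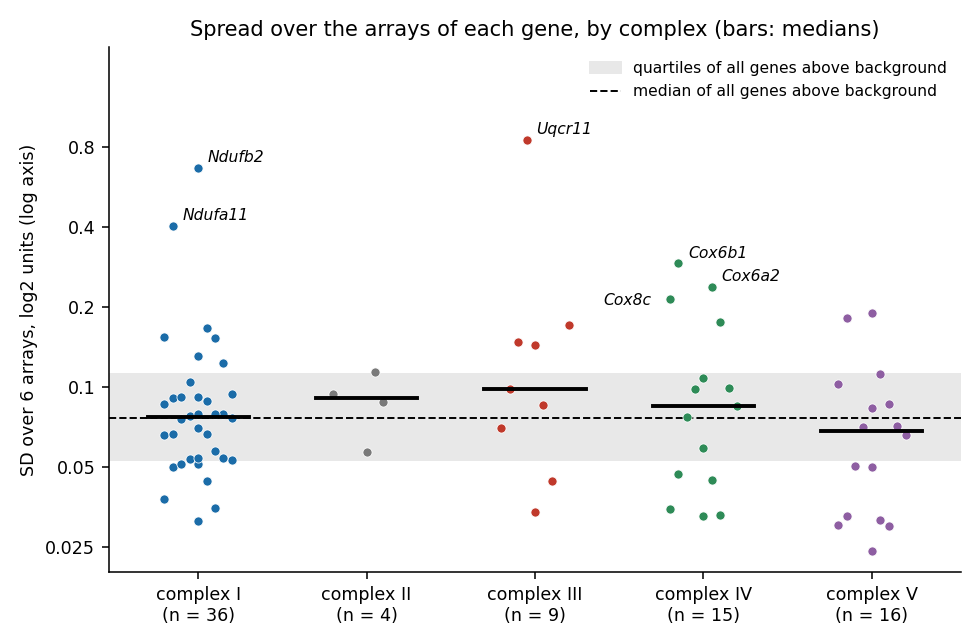
Each point is the SD over 6 arrays (log2 units, log axis) of 1 subunit gene above background, grouped by complex, with a black bar at the median of the complex. The grey band and dashed line give the quartiles and median of all 12793 genes above background. The 6 named genes have an SD over 0.2, and Uqcr11 (0.85) and Ndufb2 (0.67) stand far above the rest of complexes III and I.

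An SD over 0.2 was found for 6 of the 80 genes (7.5%), beside 4.16% of all genes above background. They were Uqcr11, Ndufb2, Ndufa11, Cox6b1, Cox6a2 and Cox8c. Cox8c, at 0.214, was the last above that line, and Atp5e, at 0.190, the first below it. Complexes II and V had none. With a background level at the 99th percentile of the olfactory receptor genes 72 of the 82 genes passed, and Ndufb2, Cox8c and Uqcrfs1 were among the 8 lost, so that 4 wide genes were left. With each array centred on its median 5 were left, without Cox8c. By SD, Uqcr11 and Ndufb2 ranked 3 and 4 among the 12793 genes, Ndufa11 ranked 17 and Cox6b1 ranked 83.

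The bases just upstream of the 3 most variable genes are shown because the levels of these genes correlated over the 6 arrays. For Ndufb2 this rested in good part on replicates 2 and 5. Without those its r was 0.66 with Uqcr11 and 0.46 with Ndufa11. They are the 250 bases before the RefSeq start of each gene in GRCm38.p6, written in the direction of transcription, and capitals mark matches to the motifs given after them. Uqcr11 lies on the minus strand (chr10:80406822-80407071), Ndufb2 on the plus strand (chr6:39592315-39592564) and Ndufa11 on the plus strand (chr17:56717512-56717761).
Uqcr11: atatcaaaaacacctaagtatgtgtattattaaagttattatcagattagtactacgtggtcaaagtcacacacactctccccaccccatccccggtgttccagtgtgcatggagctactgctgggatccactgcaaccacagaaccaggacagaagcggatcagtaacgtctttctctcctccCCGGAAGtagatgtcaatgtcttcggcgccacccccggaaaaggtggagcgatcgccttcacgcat
Ndufb2: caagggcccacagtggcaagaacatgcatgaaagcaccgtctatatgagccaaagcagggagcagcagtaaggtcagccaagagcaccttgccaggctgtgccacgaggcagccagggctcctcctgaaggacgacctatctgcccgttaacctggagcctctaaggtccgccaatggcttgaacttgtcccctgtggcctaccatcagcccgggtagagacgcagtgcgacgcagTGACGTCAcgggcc
Ndufa11: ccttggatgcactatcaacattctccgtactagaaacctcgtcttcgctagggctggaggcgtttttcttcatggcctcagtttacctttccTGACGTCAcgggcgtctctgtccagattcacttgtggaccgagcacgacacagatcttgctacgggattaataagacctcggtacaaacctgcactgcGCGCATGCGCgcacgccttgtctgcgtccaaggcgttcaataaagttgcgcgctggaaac

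Both strands were searched for 4 motifs, in windows that also held the 50 bases after the start and that were found for 66 of the 82 genes. The motif CCGGAAG, of the ETS family to which the mitochondrial regulator GABP belongs, stood 66 to 60 bases before the start of Uqcr11, and 24.2% of the 66 genes held it, against 9.93% of 27025 genes in the RefSeq promoter table. GCGCATGC, the core of the motif of the respiratory chain regulator NRF1, stood before Ndufa11 as a pair of overlapping matches on opposite strands (60 to 53 and 58 to 51 bases before the start), and 15.2% held it, against 3.05%. Uqcr11 also held GCGCATGC, in the 50 bases after its start that are not printed. AAGATGGCG, a YY1 motif, was held by 12.1%, against 1.64%, and by none of these 3 genes. TGACGTCA, the cAMP response element, was added after the sequences had been seen. It stood 14 to 7 bases before the start of Ndufb2 and 158 to 151 before that of Ndufa11, and only Ndufa10 and Uqcrfs1 held it besides, so that it was found in 6.06% of the 66 genes against 2.03%. No motif of the 4 was held by all 3 genes. The 4 genes with TGACGTCA had SDs of 0.67 (Ndufb2), 0.40 (Ndufa11), 0.15 (Uqcrfs1) and 0.031 (Ndufa10). These matches describe letters and not binding. RefSeq places no other gene over Uqcr11, Ndufb2 or Ndufa11 on either strand.

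Uqcr11 encodes a small accessory subunit of complex III. Its level was lowest in replicate 6, at 7.98, had a median of 8.77 and was highest in replicate 5, at 10.15, with a mean of 8.87 ± 0.85 (n = 6). Replicates 2 (9.38) and 8 (9.21) were also high, replicates 4 (8.33) and 7 (8.16) were low, and the highest array was 4.51-fold above the lowest. The rest of complex III did not share this pattern. The mean of the 8 other subunits had an SD of 0.051, deviated from its own mean by -0.063 in replicate 5 and 0.020 in replicate 6, and was highest in replicate 8. Its correlation with Uqcr11 was r = -0.49 (rho = -0.49, n = 6), and without 1 array at a time r lay between -0.94 and -0.084.

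Ndufb2 encodes an accessory subunit of the membrane arm of complex I. It was lowest in replicate 7, at 7.64, had a median of 7.91 and was highest in replicate 5, at 9.28, with a mean of 8.22 ± 0.67 (n = 6) and a 3.11-fold range. Replicates 2 (8.84) and 5 stood above the other arrays, which lay between 7.64 and 7.91, not far above background. The mean of the 35 other complex I subunits had an SD of 0.015 and deviated by no more than 0.019 in any array. Its correlation with Ndufb2 was r = 0.38 (rho = 0.71). It was -0.37 over the 34 genes left without Ndufa11, and -0.013 with each array centred on its median, so no direction is given.

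Ndufa11, another accessory subunit of the membrane arm, was lowest in replicate 6, at 10.23, had a median of 10.77 and was highest in replicate 5, at 11.26, with a mean of 10.76 ± 0.40 (n = 6). Replicates 2, 5 and 8 were high and replicates 4, 6 and 7 low, the same split as in Uqcr11, over a 2.05-fold range. The other 35 complex I subunits, among them Ndufb2, had a mean with an SD of 0.018, which correlated with Ndufa11 at r = 0.85 (rho = 0.77). That correlation rested on Ndufb2, and r was -0.032 (rho = -0.086) with the mean of the 34 others.

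**Figure D2:**
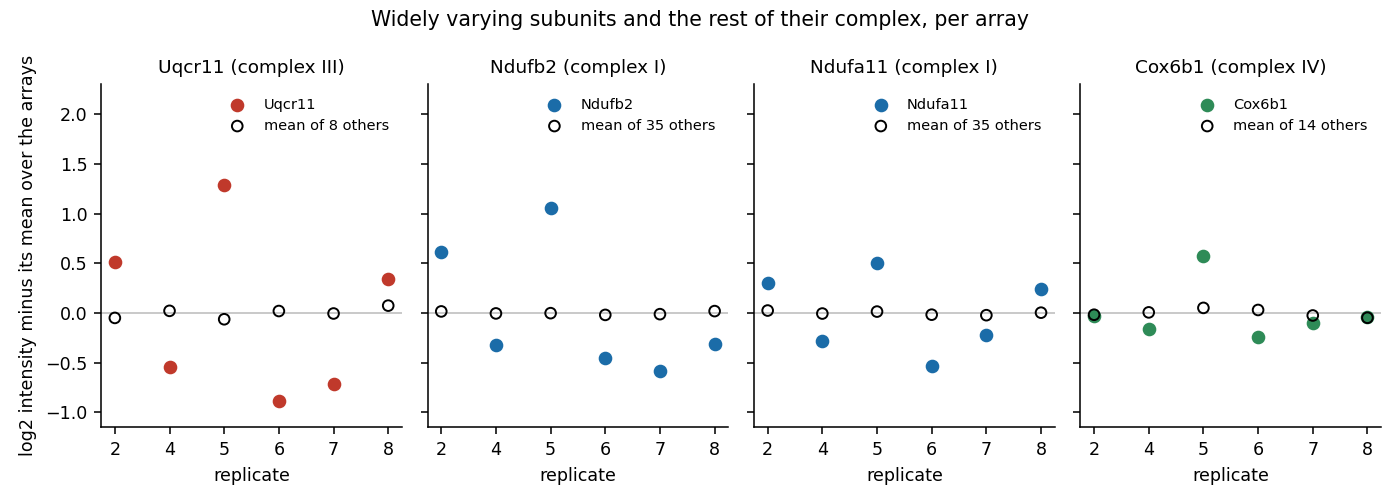
Filled points give the log2 intensity of Uqcr11, Ndufb2, Ndufa11 and Cox6b1 on each array minus its mean over the 6 arrays, and open circles give the same for the mean of the other subunits of the complex. Replicate 5 is the highest in all 4 genes (1.29, 1.06, 0.50 and 0.57 above their means), whereas the open circles stay between -0.063 and 0.074.

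The levels of Uqcr11 and Ndufb2 were correlated over the arrays, with replicates 5 and 2 the highest in both genes. Pearson's r between them was 0.90 (exact two-sided permutation p = 0.00417) and Spearman's rho was 0.94 (exact two-sided permutation p = 0.0167). The p is the share of all 720 pairings with a correlation at least as large in size. Only 1 relation was tested, and its p was not adjusted. Both genes were picked for their wide spread on these same arrays, so the p is not that of a pair fixed in advance. Without replicates 5 and 6, the arrays farthest from the median of Uqcr11, r was 0.76 over 4 arrays. The relation rested in good part on replicates 2 and 5, the highest arrays in both genes. Without those r was 0.66 (exact permutation p = 0.375, n = 4), and the p also passed 0.05 without replicate 4 (exact permutation p = 0.0667) or without replicate 7 (exact permutation p = 0.0583). A high correlation over 6 arrays is not rare in this table. Of the 12792 other genes above background, 264 (2.06%) had a higher r with Uqcr11 than Ndufb2 had, and 148 (1.16%) had a higher r with Ndufb2 than Uqcr11 had.

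Further correlations are descriptions over the same 6 arrays, with no p. Ndufa11 followed Uqcr11 at r = 0.97, and at 0.96 without replicates 2 and 5. It followed Ndufb2 at r = 0.82, and at 0.46 without those arrays. Cox6b1, which encodes a complex IV subunit facing the intermembrane space, correlated with Uqcr11 at 0.87, with Ndufb2 at 0.84 and with Ndufa11 at 0.79. Without replicate 5 these values were 0.87, 0.56 and 0.96, and without replicates 2 and 5 the value with Ndufb2 was 0.21. Cox6a2 and Cox8c had r between -0.34 and 0.24 with Uqcr11, Ndufb2 and Ndufa11, and correlated with each other at 0.77. Replicate 5 weighed on these values. Without it Cox6a2 and Cox8c had r of -0.63 and -0.68 with Uqcr11 and of -0.75 and -0.74 with Ndufa11, but of -0.18 and -0.058 with Ndufb2. The mean deviation of Uqcr11, Ndufb2 and Ndufa11 was 0.95 in replicate 5, 0.47 in replicate 2 and 0.093 in replicate 8, and -0.38, -0.50 and -0.63 in replicates 4, 7 and 6. The other subunit genes above background deviated on average by -0.012 to 0.022. Among the cell type markers, r with Uqcr11 ranged from 0.08 (Slc5a7) to 0.78 (Mnx1) over the 6 motor neuron markers. With Ndufb2 it ranged from -0.27 (Slc5a7) to 0.60 (Lhx3) over the same 6. Over the 4 progenitor markers r with Uqcr11 was -0.87 for Nkx6-1, -0.84 for Sox2, -0.15 for Nes and 0.03 for Olig2. With Ndufb2 these values were -0.87, -0.74, -0.05 and 0.18. The part of either cell type in these levels was not tested.

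An r over 0.8 with Uqcr11 was seen in 8 of the 79 other genes (10.1%), against 5.44% of all other genes above background. An r over 0.8 with Ndufb2 was seen in 9 of 79 (11.4%), against 4.07%. Of these, Cox4nb, Cox6b1, Ndufa11, Ndufb7, Ndufs3 and Sdhb were common to both counts, Ndufs7 was in the first alone, and Cox7a2l and Ndufa13 in the second alone, besides Uqcr11 and Ndufb2 themselves. None came from complex V, and none of the 8 other complex III genes passed 0.8 with Uqcr11. Sdhb, the iron-sulfur subunit of complex II, followed Uqcr11 most closely, at r = 0.99, with a much smaller SD of 0.11, and Ndufb7 followed Ndufb2 at r = 0.96 with an SD of 0.091. An r under -0.8 was seen in 4 of 79 genes with Uqcr11 (5.06%, against 2.93% of all other genes) and in 8 of 79 with Ndufb2 (10.1%, against 3.61%). Uqcrc1, a core protein of complex III, ran opposite to both genes (r = -0.91 and -0.96), with an SD of 0.070, as did Ndufv1, the NADH-binding subunit of complex I (r = -0.85 and -0.82).

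**Figure D3:**
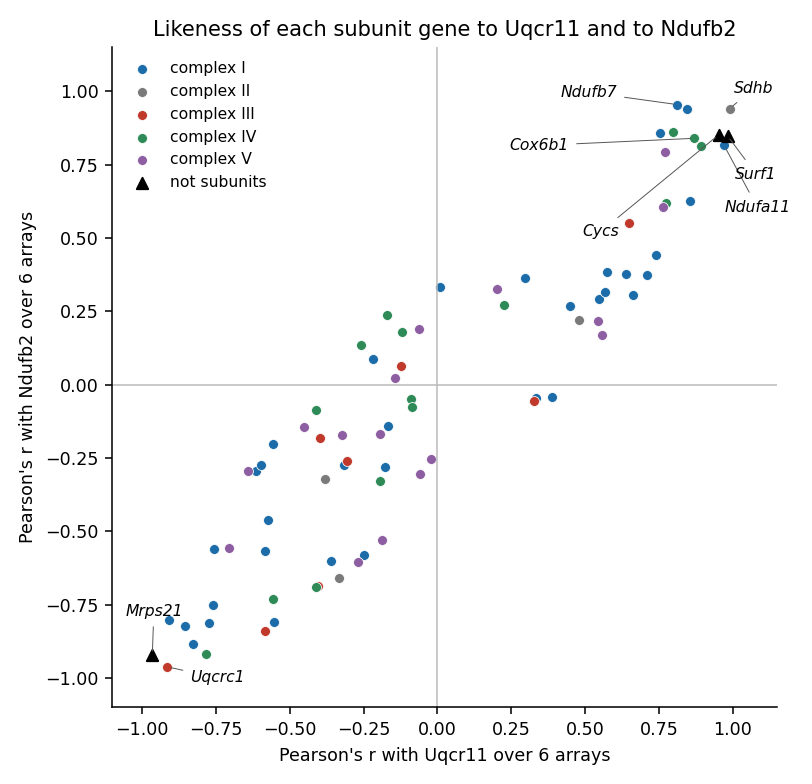
Each point is 1 subunit gene above background, placed by its Pearson's r with Uqcr11 (horizontal) and with Ndufb2 (vertical) over the 6 arrays and coloured by complex, and black triangles mark Cycs, Surf1 and Mrps21, which are not subunits. Points at the upper right, such as Sdhb (0.99 and 0.94), follow both genes, and Uqcrc1 at the lower left (-0.91 and -0.96) runs opposite to both. The axes are not independent, since Uqcr11 and Ndufb2 themselves correlate at 0.90.

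Over all genes above background, those most like Uqcr11 were Cc2d2a, Axin1, Micall1, Isca1 and Eif3i, each at r = 0.99, with SDs from 0.018 to 0.17. Those most like Ndufb2 were Banp (r = 0.997), Repin1, Ppap2c, C1qtnf4 and 1810008A18Rik (each at r = 0.99), with SDs from 0.069 to 0.25. None of these 10 was a subunit gene. All had a narrower spread than the gene they resembled.

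In complex I, whose subunits hold the flavin, the iron-sulfur clusters and the proton pumps, the widest after Ndufb2 and Ndufa11 was Ndufa6, at 9.16 ± 0.17. It was high in replicates 2 (9.37) and 4 (9.35) and lowest in replicate 8 (8.98). The catalytic Ndufv1 was measured at 10.09 ± 0.079 and the iron-sulfur subunit Ndufs1 at 9.06 ± 0.086, the latter with replicate 8 high, at 9.22. The steadiest were Ndufa10 (SD 0.031) and Ndufb4 (SD 0.035). Complex I genes shared little, with a mean pairwise r of -0.0060, beside 0.0028 over all genes above background. Its mean level had an SD of 0.028, which was 0.010 without Ndufb2 and Ndufa11.

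Complex II, which is also the succinate dehydrogenase of the citric acid cycle, has 4 subunits, and all were measured. Sdhb was the widest (10.03 ± 0.11), with 9.90 in replicate 6 as its lowest, 10.01 as its median and 10.21 in replicate 5 as its highest value. The membrane anchors Sdhc (10.70 ± 0.094) and Sdhd (9.67 ± 0.087) were both highest in replicate 8, and the flavoprotein Sdha (10.42 ± 0.057) was the steadiest. Replicate 5 was highest for Sdhb but lowest for Sdhc and Sdha, and the mean pairwise r was 0.015.

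In complex III, the widest after Uqcr11 were Uqcr10, a small accessory subunit (9.41 ± 0.17), and Uqcrfs1, the Rieske iron-sulfur protein (7.92 ± 0.15). Both were highest in replicate 8 (9.64 and 8.15) and lowest in replicate 5 (9.14 and 7.77), where Uqcr11 was highest. Uqcrh, the hinge protein, was also highest in replicate 8, at 9.83 against 9.43 to 9.56 in the other arrays. The core protein Uqcrc2 (11.60 ± 0.034) and cytochrome c1, Cyc1 (11.43 ± 0.044), were the steadiest. The mean pairwise r was -0.061, and the SD of the mean level fell from 0.082 to 0.051 without Uqcr11.

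Complex IV held the other wide genes. Cox6b1 lay between 10.68 and 10.89 in all arrays but replicate 5, where it reached 11.49, 1.76-fold above the lowest. Cox6a2, the isoform of heart and skeletal muscle, was lowest in replicate 8 (8.94), had a median of 9.28 and was highest in replicate 4 (9.53), with a 1.5-fold range. Cox8c, a further isoform of subunit 8, was lowest in replicate 8 (7.41), which is below the background level, had a median of 7.84 and was highest in replicate 6 (8.02). The isoforms used in most tissues were steadier than their restricted partners for subunits 6a and 8, but not for subunits 4 and 6b. Cox6a1 was at 12.83 ± 0.035 and Cox8a at 12.79 ± 0.033, both brighter than Cox6a2 and Cox8c. Bright genes vary less on arrays, so isoform and level cannot be told apart here. The common Cox4i1 was at 9.84 ± 0.059 and Cox4i2, an isoform linked to low oxygen, at 8.04 ± 0.047. The testis-enriched Cox6b2, at 8.29 ± 0.11, spread less than the common Cox6b1, whose SD was 0.29. Cox7b had an SD of 0.085, Cox7a2 one of 0.098 and Cox7a2l, which helps to join complexes III and IV, one of 0.099, while Cox7c had the smallest of the complex, 0.032.

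Complex V was the steadiest by its median SD. The catalytic core subunits Atp5a1 (11.61 ± 0.050) and Atp5b (13.38 ± 0.030) and the peripheral stalk subunits Atp5o (10.55 ± 0.024) and Atp5f1 (10.62 ± 0.030) differed by at most 1.11-fold between any pair of arrays. Atp5o had the smallest SD of the 80 genes. Atp5e, the epsilon subunit of the central stalk, was at 9.40 to 9.51 in all arrays but replicate 5, where it was at 9.93. Atp5l and Atp5k, small membrane subunits, had SDs of 0.18 and 0.11, and both were lowest in replicate 2 and highest in replicate 8. The genes Atp5g1, Atp5g2 and Atp5g3, which encode the same mature c subunit of the rotor, had SDs of 0.050, 0.086 and 0.066.

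**Figure D4:**
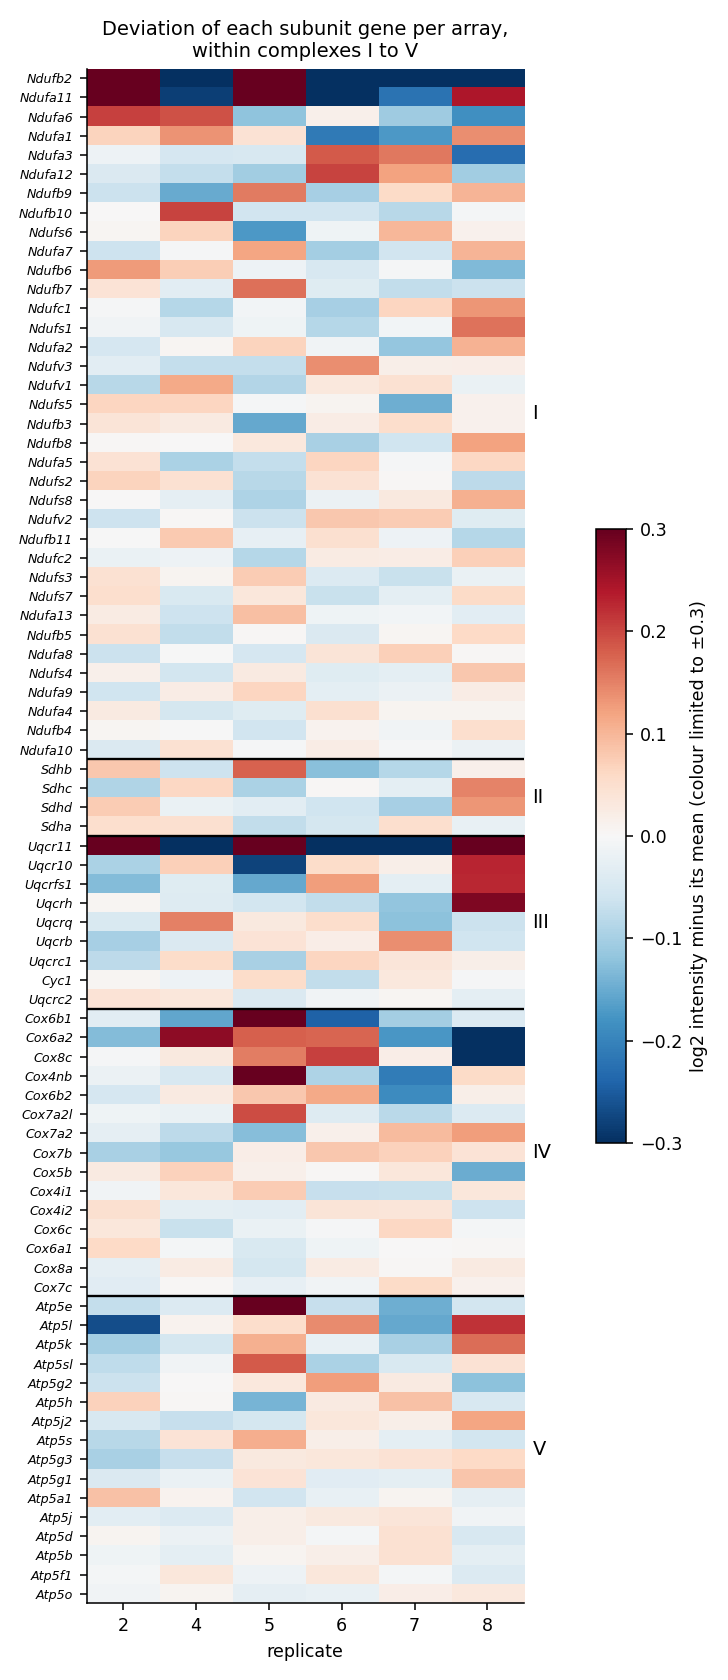
Each cell is the log2 intensity of 1 subunit gene on 1 array minus its mean over the 6 arrays, with complexes I to V separated by lines, genes ordered by SD within a complex, and colours limited to ±0.3. The full colours are those of genes at the top of complexes I, III, IV and V, such as Ndufb2, Uqcr11, Cox6b1 and Atp5e, and no complex shows 1 colour in a whole column.

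Taking each complex as the mean of its genes with an SD of at most 0.2, the levels moved by little. The SDs of these means were 0.010, 0.046, 0.051, 0.019 and 0.031 for complexes I to V. They are means over 34, 4, 8, 12 and 16 genes. Cox4nb was not left out of the mean of complex IV, nor Atp5s and Atp5sl out of that of complex V. In replicate 5 Cox4nb deviated by 0.31 and the mean of complex IV by 0.033. A mean over more genes that vary separately spreads less, so these SDs do not rank the complexes by steadiness. Complexes IV and V correlated most (r = 0.82, rho = 0.83), then I and II (r = 0.69) and I and III (r = 0.61). Complex I had r = -0.56 with IV and r = -0.54 with V. The other 5 pairs lay between -0.31 and 0.27. These pairs were not recomputed with each array centred on its median. Such centring reversed the sign of the mean pairwise r within complexes I and III, so no direction is given for the pairs. Over the 3160 pairs of single genes the median r was -0.022, with values from -0.99 to 0.99.

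In 10 of the 80 genes (12.5%) a single array stood apart, as judged by its gap to the nearest neighbour over the whole range (Dixon's ratio, at its 95% critical value), against 6.97% of all genes above background. Replicate 5 was the array in 4 of these (high in Cox6b1, Atp5e and Cox7a2l, low in Ndufb3), and replicate 8 in 4 others (high in Uqcrh and Ndufs1, low in Cox5b and Cox8c). Replicate 8 was the highest array in 24 of the 80 genes (30%) and the lowest in 12 (15.0%), beside 27.5% and 26.4% of all genes above background. Replicate 5 was the highest in 18 (22.5%) and the lowest in 21 (26.25%), beside 20.4% and 19.6%.

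Other genes of oxidative metabolism were read from lists. Of 41 assembly factors above background, which build the complexes without staying in them, 1 had an SD over 0.2 (2.44%, beside 4.16% of all genes above background), and their median SD was 0.087. That gene was Uqcc2, listed as 2900010M23Rik, which is needed for complex III assembly, with a level of 10.85 ± 0.28. Surf1, an assembly factor of complex IV, followed Uqcr11 at r = 0.98 with an SD of 0.17. Cycs, the mobile cytochrome c between complexes III and IV, was lowest in replicate 6 (11.22) and highest in replicate 5 (12.07), with a mean of 11.65 ± 0.29, and correlated with Uqcr11 at 0.95 and with Ndufb2 at 0.85. None of the 17 regulators of these genes and of mitochondrial DNA and none of the 16 citric acid cycle genes had an SD over 0.2. Their median SDs were 0.073 and 0.058, and at a share of 4.16% lists of that size would hold less than 1. In these 2 lists no gene had an r over 0.8 with Uqcr11. An r under -0.8 with it was seen in Nrf1 (-0.88), Mdh2 (-0.93), Idh3g (-0.88), Cs (-0.85) and Suclg2 (-0.83). Over all other genes above background 2.93% had such an r.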

How the data were processed

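RNA of 6 embryoid body cultures was measured on Affymetrix mouse exon arrays. The authors deposited 1 intensity for each gene on each array, not log-transformed. Their methods name Robust Multi-array Averaging (RMA) in the Aroma Affymetrix package, followed by a mean over the exons of a gene, and the submitters' processing notes name Affymetrix Expression Console and RMA. Per the methods, arrays of a batch of embryoid bodies were analysed together in Expression Console for a screen of outliers, but whether these 6 shared a batch, which arrays were normalized with them by RMA and the genome build are not given in the sources used here, and no step is named that separates signal shared with near-identical copies, which several subunit genes have as pseudogenes. The authors' correction for motor neuron content is a ratio to a model and is not part of these values.

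Their log2 was taken without a pseudocount, in Python 3.11.15 with pandas 2.3.3, numpy 2.4.6 and scipy 1.17.1. The subunit genes and all other gene lists were chosen with earlier results of these data known. Background, SD, Pearson's r and Spearman's rho were computed over the whole table, and the exact permutation test was run for Uqcr11 with Ndufb2. The scripts were tested on simulated data. Genes were named by a rule: Uqcr11 and Ndufb2, the 3 widest and 2 steadiest of each complex, all with an SD over 0.2, all below background, all with 1 array apart, catalytic subunits, isoform families and the 5 genes most like each of Uqcr11 and Ndufb2. Genes of the lists named with values, Ndufb7, Ndufs3, Ndufs7 and Ndufa13 were picked after their values had been seen. Alternatives were centring on the array median, a background at the 99th percentile, no filter, a linear scale and leaving out each array. No read depth exists for arrays, and precision is limited by how many there are. Upstream sequences came from a RefSeq table of GRCm38.p6, and protein sequences were not used here.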

Additional observations from a re-analysis of the deposited data

Results flagged for a closer look

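In 10 of 85 values screened (80 subunit genes and 5 complex means) 1 array lay far from the other 5. Chance picks about 1 in 20 such groups, which would be 4.25 here, and at the 6.97% found over all genes above background it would be 5.93. Values are log2 intensities. Replicate 5 was the highest array for Cox6b1 (11.49, nearest 10.89), Atp5e (9.93, nearest 9.51) and Cox7a2l (10.67, nearest 10.46), and the lowest for Ndufb3 (8.83, nearest 8.99). Replicate 8 was the highest for Uqcrh (9.83, nearest 9.56) and Ndufs1 (9.22, nearest 9.05), and the lowest for Cox5b (11.92, nearest 12.08) and Cox8c (7.41, nearest 7.81). Replicate 4 was the highest for Ndufb10 (7.92, nearest 7.72), and replicate 7 the lowest for Ndufs5 (7.67, nearest 7.81). Without replicate 5 the SD of Cox6b1 was 0.087 in place of 0.29 and that of Atp5e 0.041 in place of 0.19, and without replicate 8 that of Cox8c was 0.093 in place of 0.21. Uqcr11, Ndufb2, Ndufa11 and Cox6a2 were not among the 10.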

How the results depend on the processing

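Of 205 values recomputed for 22 results, 176 were classed as unchanged in direction, side of 0.05 and size within the error over arrays. Counts of genes were all classed so, though some moved by more than that error. The number above background fell from 80 to 72 at the 99th percentile. The number with an SD over 0.2 went from 6 to 4 there and to 8 without replicate 4. The correlation of Uqcr11 with Ndufb2 was 0.66 without replicates 2 and 5 together, an alternative chosen after seeing the data, and 0.77 to 0.99 without 1 array at a time. That of Uqcr11 with Ndufa11, also added after seeing the data, was 0.94 on the linear scale and 0.97 to 0.98 without 1 array. Centring each array on its median turned the correlation of Ndufb2 with the rest of complex I to -0.013 (it was -0.37 without Ndufa11, also added after seeing the data), and raised the mean pairwise r to 0.14 in complex I, 0.26 in II, 0.11 in III and 0.11 in V, which in complexes I and III reversed its sign. It also raised the SD of the mean level to 0.041 in complex I, 0.069 in II and 0.097 in III. With background at the 99th percentile, the SD of the mean level of complex I was 0.015, and the mean pairwise r was -0.10 in complex III and -0.069 in IV. With no filter the median SD of complex IV was 0.098 and its mean pairwise r -0.016.

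Without 1 array at a time, the median SD over the 80 subunit genes above background lay between 0.066 and 0.083. By complex it lay between 0.066 and 0.078 in complex I, 0.066 and 0.099 in II, 0.086 and 0.11 in III, 0.077 and 0.086 in IV, and 0.052 and 0.073 in V. The mean pairwise r lay between -0.016 and 0.0022 in complex I, -0.11 and 0.15 in II, -0.080 and -0.046 in III, -0.067 and -0.036 in IV, and -0.030 and 0.079 in V. Its sign reversed in complex I without replicate 4 (0.0022) or 6 (0.00059), in II without replicate 6 (-0.11) or 8 (-0.071) and in V without replicate 2 (-0.030). The SD of the mean level lay between 0.025 and 0.030 in complex I, 0.036 and 0.052 in II, 0.072 and 0.092 in III, 0.023 and 0.053 in IV, and 0.023 and 0.034 in V. In complex IV 0.023 was the value without replicate 5. Between 6 and 8 genes had an SD over 0.2 without 1 array, 5 with centring and 4 with background at the 99th percentile, where Ndufb2 itself was lost. The cause of these shifts was not tested. No paired analysis was possible because the arrays form 1 group.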

Other observations

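Proteins of the mitochondrial ribosome, which translates the mitochondrially encoded subunits, were measured for comparison. Of the 73 genes 72 were above background, with a median SD of 0.089, and 2 had an SD over 0.2. Mrps21 ran opposite to Uqcr11 and Ndufb2 (r = -0.96 and -0.92), with 9.72 in replicate 5 as its lowest and 10.69 in replicate 7 as its highest value and a mean of 10.24 ± 0.42 (n = 6), as wide as Ndufa11 (0.40). Mrpl33 was at 8.39 to 8.50 in all arrays but replicate 5, where it was at 9.04. Over the 72 genes, 11 (15.3%) had an r over 0.8 with Uqcr11 and 10 (13.9%) with Ndufb2, beside 5.44% and 4.07% of all other genes above background. Others ran the opposite way. Besides Mrps21, r with Uqcr11 was under -0.8 in Mrpl39 (-0.95), Mrps5 (-0.94), Mrps18a (-0.91), Mrpl14 (-0.90), Mrpl37 (-0.89) and Mrpl4 (-0.84). Over all other genes above background 2.93% had such an r.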
